A study of Mus musculus with 92 samples.

Results

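The vacuolar ATPase (V-ATPase) is the proton pump of lysosomes, endosomes and synaptic vesicles, and 10 of its genes are described here across blood, muscle and spinal cord of mice that carry the G93A-SOD1 transgene, a model of amyotrophic lateral sclerosis. The genes were chosen by name as subunits of the pump other than Atp6v1d, and the question was whether they moved together. They were Atp6v1a, Atp6v1b2, Atp6v1c1, Atp6v1e1, Atp6v1f, Atp6v1h, Atp6v0b, Atp6v0c, Atp6v0d1 and Atp6ap1, 10 of 15967 genes that the arrays' annotation names. A probe carried the symbol of 9 of them and none carried that of Atp6v0c. The brightest detected probe stood for each gene, and 8 genes passed the detection filter in every tissue (detection p-value under 0.05 on at least 7 arrays of the tissue). Atp6v1h failed it.

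RNA of G93A-SOD1 mice and wild type littermates was hybridised to Illumina bead arrays at 70 and at 100 days of age, from lumbar spinal cord, the left tibialis anterior muscle and whole blood depleted of globin transcripts. The labels give 1 strain name, B6.Cg-Tg(G93A-SOD1)1Gur/J, for carriers and littermates alike, and the littermates are labelled wild type. The transgene holds many copies of mutant human SOD1 under its own promoter, so it is expressed in all tissues and the arrays cannot separate effects of a tissue from effects elsewhere in the mouse. At 70 days there were 8 G93A-SOD1 and 8 wild type arrays in each tissue. At 100 days there were 8 G93A-SOD1 and 7 wild type arrays of spinal cord and of blood, and 7 of each genotype in muscle. The labels do not say whether each array is a separate mouse, so the p-values measure the spread between arrays, part of which may be technical, and the number of arrays limits the precision.

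The pump has a cytosolic domain, V1, that hydrolyses ATP, and a membrane domain, V0, through which protons pass. In V1 the A subunits (Atp6v1a) and B subunits (Atp6v1b2) form the catalytic head, E (Atp6v1e1) is a part of the peripheral stalks, F (Atp6v1f) of the central stalk, and C (Atp6v1c1) and H (Atp6v1h) sit where the domains meet. In V0 the proteolipids c (Atp6v0c) and c″ (Atp6v0b) build the rotating ring, d (Atp6v0d1) couples the ring to the central stalk, and Atp6ap1 is an accessory protein of the membrane domain. In neurons the pump also fills synaptic vesicles, since the proton gradient drives transmitter uptake. Many of its genes are known targets of TFEB and related factors, which bind the E-box CACGTG.

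RefSeq promoter windows of mouse build GRCm38.p6 were matched for 7 of the 10 genes, and Atp6v1b2, Atp6v1c1 and Atp6v1h are named only. The 3 windows below run over the 250 bases before the annotated start, 5′ to 3′ on the strand of the gene, with each CACGTG in capitals. Atp6v1a (chr16:44139260-44139509, minus strand) and Atp6v0b (chr4:117887330-117887579, minus strand) are shown because they hold the whole E-box in these bases. Atp6v1e1 (chr6:120822699-120822948, minus strand) is shown because it was the gene of the 10 that passed the test between the genotypes.
Atp6v1a: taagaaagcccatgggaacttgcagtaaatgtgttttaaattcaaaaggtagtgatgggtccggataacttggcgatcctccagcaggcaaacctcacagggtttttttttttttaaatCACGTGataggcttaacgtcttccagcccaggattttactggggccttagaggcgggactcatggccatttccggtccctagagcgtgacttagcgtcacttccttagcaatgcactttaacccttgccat
Atp6v0b: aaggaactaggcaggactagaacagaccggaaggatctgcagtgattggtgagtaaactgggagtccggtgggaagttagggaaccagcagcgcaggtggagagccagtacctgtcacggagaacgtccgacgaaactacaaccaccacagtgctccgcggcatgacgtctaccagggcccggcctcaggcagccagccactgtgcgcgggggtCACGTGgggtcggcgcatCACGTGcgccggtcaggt
Atp6v1e1: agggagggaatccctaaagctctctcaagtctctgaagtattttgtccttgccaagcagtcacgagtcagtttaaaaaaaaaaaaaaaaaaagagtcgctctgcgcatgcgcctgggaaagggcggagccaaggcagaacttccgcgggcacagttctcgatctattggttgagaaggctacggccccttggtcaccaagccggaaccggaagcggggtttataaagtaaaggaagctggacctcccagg
The E-box, which reads the same on both strands, lay 131 bases before the start of Atp6v1a and 36 and 18 bases before that of Atp6v0b. It was in these windows of 2 of the 7 genes and in 6.02% of 32851 RefSeq windows of 250 bases. An E-box of Atp6v0d1 runs across the annotated start and is cut by this window. In windows of 300 bases, with 50 after the start, 3 of the 7 genes held the E-box, Atp6v0d1 among them, and 7.15% of all windows did. Atp6v1a also held the longer form TCACGTGA, which was in 0.785% of all windows of 250 bases. In the windows of 300 bases Atp6v0d1 held it too, beside 0.974% of all windows. The letters do not occur in the 250 bases before Atp6v1e1. A match describes the sequence and is not a binding site, and these arrays measured no binding.

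Before the results, 10 of the 92 arrays have to be set apart, since the members themselves marked them. Atp6v1h, subunit H, was detected on exactly these 10 arrays and on no other, with 5 of 31 arrays of spinal cord, 5 of 30 of muscle and 0 of 31 of blood. Its signal before normalization was 366 to 446 (median 394) on the 5 spinal cord arrays and 59.2 to 93.4 (median 71.0) on the other 26. In muscle it was 94.3 to 188 (median 110) on 5 arrays and 55.5 to 85.9 (median 66.3) on the other 25. The 10 arrays cut across genotype and age. In spinal cord they were G93A-SOD1 replicate 2 at 70 days, G93A-SOD1 replicate 2 at 100 days, wild type replicates 3 and 4 at 70 days and wild type replicate 1 at 100 days. In muscle they were G93A-SOD1 replicates 2 and 3 at 100 days, wild type replicate 3 at 70 days and wild type replicates 1 and 2 at 100 days. Atp6v1h was not alone, since 319 probes of 277 genes in spinal cord and 203 probes of 177 genes in muscle were detected on all 5 of these arrays and on no other array of the tissue.

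**Figure D1:**
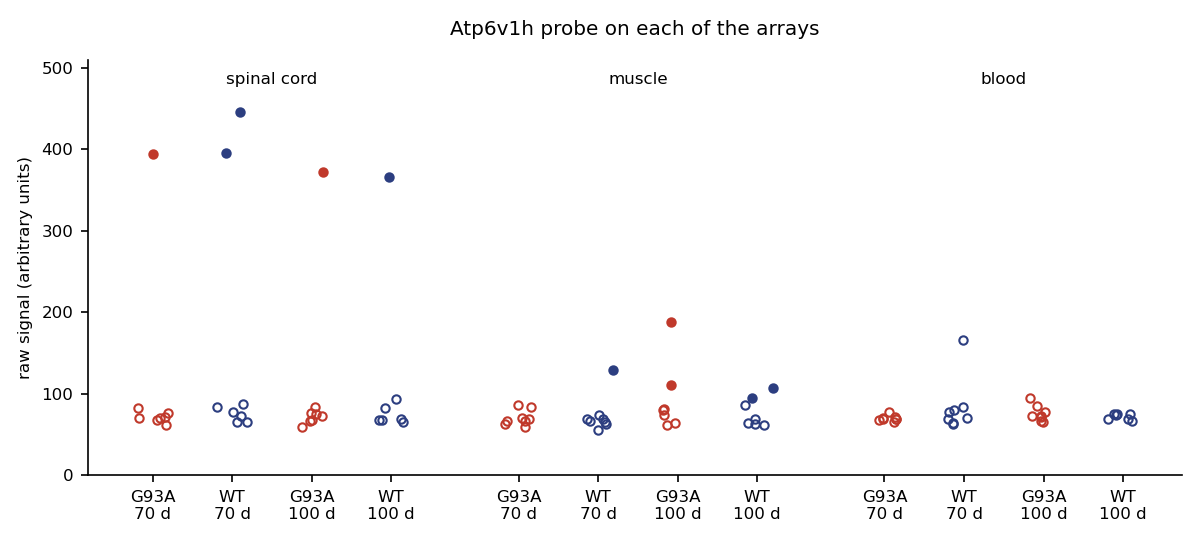
Signal of the Atp6v1h probe before normalization on every array, by tissue, age and genotype (G93A-SOD1 red, wild type blue). Filled points are arrays on which the probe was detected; these are 5 of 31 spinal cord arrays, from 366 to 446, and 5 of 30 muscle arrays, from 94.3 to 188, and they are spread over both genotypes.

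Other subunits also read differently on the 10 arrays. Over both genotypes and ages, Atp6v1a was higher on them by 0.85 log2 units in spinal cord (limma, adjusted p = 0.00304) and by 1.19 in muscle (adjusted p = 0.000287). Atp6v1b2 was lower on them by 0.24 in spinal cord (limma, adjusted p = 0.0420). No other member passed the test in either tissue, and Atp6v1e1 differed by −0.11 in spinal cord and 0.23 in muscle (limma, adjusted p = 0.412 and 0.252). Of all genes, 6.43% in spinal cord and 15.2% in muscle passed it. These arrays were found from the values, so the test describes them and no cause was tested. Results for Atp6v1a, Atp6v1b2 and Atp6v1e1 are given with and without them below.

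Spinal cord, the tissue with the motor neurons that degenerate, showed no change of the 8 subunits past the threshold. Normalized log2 signals, the scale of every level below, are compared within a gene and not between genes. At 70 days, 0 of 8 members passed the test of genotype, where 0.0278% of 10801 genes did (limma, Benjamini-Hochberg adjusted p under 0.05), and no member had an unadjusted p under 0.05, as 5.01% of all genes did. At 100 days, 0 of 8 passed beside 0.0185% of all genes, again with no unadjusted p under 0.05, beside 3.24%. The log2 differences, G93A-SOD1 minus wild type, lay between −0.01 and 0.15 at 70 days (median 0.06, against −0.03 over all genes) and between −0.13 and 0.08 at 100 days (median −0.01, against 0.02 over all genes). The 95% intervals of 7 of the 8 members stayed within 0.5 log2 units of 0 at both ages.

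The subunits of the catalytic head are an example. Atp6v1b2 had a lowest, median and highest value of 13.17, 13.43 and 13.53 in G93A-SOD1 spinal cord at 70 days, against 13.05, 13.43 and 13.51 in wild type. At 100 days it had 13.32, 13.40 and 13.66 in G93A-SOD1 and 13.07, 13.45 and 13.57 in wild type. The ranges overlapped over nearly their whole length. Atp6v1a, the subunit that binds and splits ATP, was the least precise member. It had 10.02, 10.65 and 11.28 in G93A-SOD1 against 10.02, 10.33 and 11.12 in wild type at 70 days, and its 95% interval there ran from −0.33 to 0.63. Its highest G93A-SOD1 value at either age, and its highest wild type value at either age, came from arrays on which Atp6v1h was detected. Without those arrays the differences at 70 and 100 days were 0.22 and 0.12 for Atp6v1a and 0.03 and −0.02 for Atp6v1b2, and none passed (limma, adjusted p from 0.772 to 0.999). Among the stalk subunits, Atp6v1e1 had 13.51, 13.82 and 13.91 in G93A-SOD1 against 13.54, 13.72 and 13.79 in wild type at 70 days. In the membrane domain, Atp6v0b had 10.88, 11.04 and 11.27 in G93A-SOD1 against 10.89, 10.95 and 11.17 in wild type. Atp6v0d1 had 10.68, 11.26 and 11.70 in G93A-SOD1 against 11.02, 11.27 and 11.45 in wild type, and in all of these genes the genotypes overlapped.

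Atp6v1d, the D subunit of the central stalk, which turns inside the catalytic head, stood apart from these genes in the same arrays. At 70 days it had 9.66, 10.38 and 10.61 in G93A-SOD1 spinal cord, against 10.58, 11.22 and 11.51 in wild type, a difference of −0.91 log2 units (0.530-fold, limma, adjusted p = 0.00258). At 100 days the difference was −0.76 (limma, adjusted p = 0.0587). It was −0.47 and −0.46 in muscle and −0.72 and −0.82 in blood at 70 and 100 days, with none of the 4 past the threshold in limma (adjusted p from 0.0726 to 0.170). The 70-day call of Atp6v1d held in 11 of 14 alternative settings and in all 16 fits that left out 1 array. Without the 5 spinal cord arrays that carry Atp6v1h, the difference was −0.91 with a limma adjusted p of 0.0874. With median centring it was −1.39 (limma, adjusted p = 0.475), and without 2 dim arrays and 3 that held muscle transcripts it was −0.83 (limma, adjusted p = 0.0652). None of the 8 members shared a fall of this size in any tissue. Its F-subunit partner in the central stalk, Atp6v1f, had 11.91, 12.13 and 12.51 in G93A-SOD1 and 11.94, 12.14 and 12.29 in wild type spinal cord at 70 days.

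**Figure D2:**
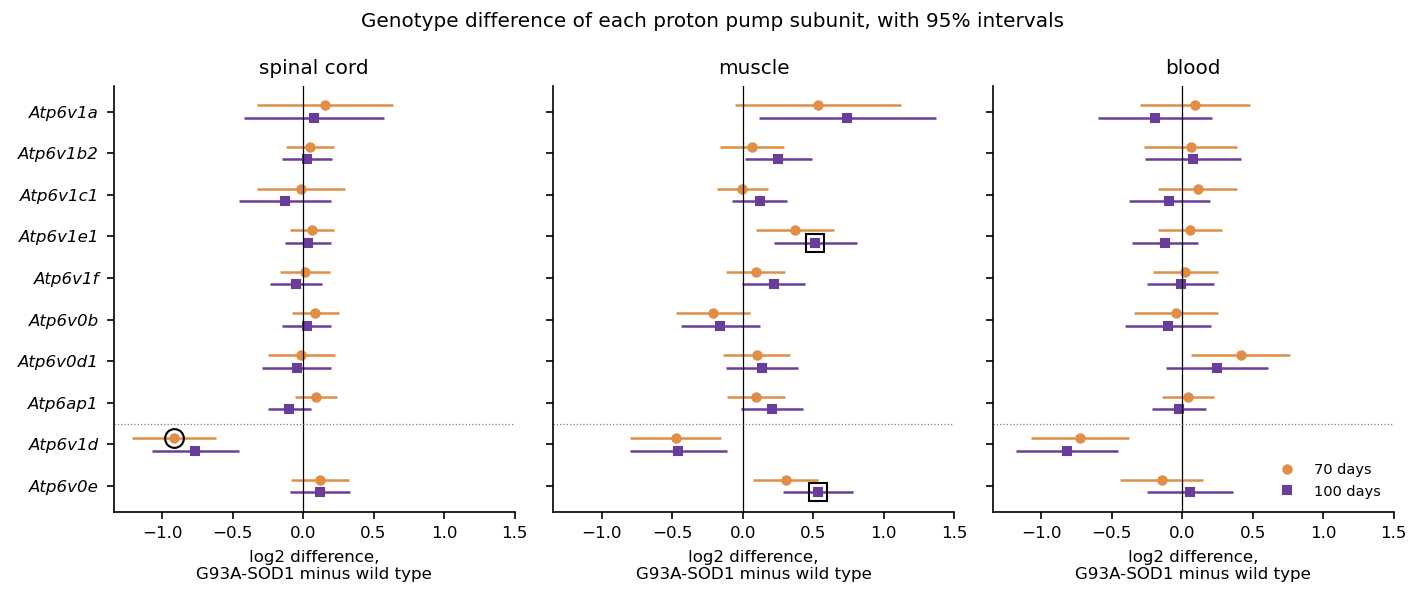
Difference between G93A-SOD1 and wild type (log2, with 95% interval) for the 8 members and for the pump genes Atp6v1d and Atp6v0e, in each tissue at 70 and 100 days. Black outlines mark limma adjusted p under 0.05: Atp6v1d in spinal cord at 70 days (−0.91), and Atp6v1e1 (0.52) and Atp6v0e (0.53) in muscle at 100 days.

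In muscle 1 of the 8 subunits passed the test. Atp6v1e1, the E subunit of the peripheral stalks, was higher in G93A-SOD1 muscle at 100 days, where 10.8% of 9089 genes passed the test, 6.05% higher and 4.75% lower. Its values were 12.57, 13.09 and 13.25 (lowest, median, highest) in G93A-SOD1 muscle and 12.35, 12.37 and 12.69 in wild type. Of the 7 G93A-SOD1 arrays, 5 lay above every wild type array. The means were 12.96 ± 0.26 in G93A-SOD1 and 12.44 ± 0.13 in wild type (SD, n = 7 each), a rise of 0.52 log2 units (SE 0.14, 1.43-fold, limma, adjusted p = 0.0250). A share of 1 in 8 members is close to the share of all genes.

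The rise of Atp6v1e1 was close to the threshold. Of the 14 fits that each left out 1 array of the 2 groups, 10 kept it past the threshold, with adjusted p from 0.0113 to 0.0633 in limma and differences from 0.47 to 0.58. The 4 that did not were those without G93A-SOD1 replicate 1, 2, 3 or 6 (limma, adjusted p = 0.0633, 0.0588, 0.0613 and 0.0592). On the 5 G93A-SOD1 and 5 wild type arrays that do not carry Atp6v1h the difference was 0.49, and on the 2 and 2 that do it was 0.59. With those arrays left out the limma fit gave an adjusted p of 0.208 for Atp6v1e1, with 3 members at an unadjusted p under 0.05, and called 0 of 9089 genes (1522 had an unadjusted p under 0.05). With them as a block, the limma adjusted p of Atp6v1e1 was 0.0188. At 70 days Atp6v1e1 had 12.40, 12.83 and 13.46 in G93A-SOD1 muscle and 12.26, 12.44 and 12.81 in wild type, and the difference of 0.37 did not pass (limma, adjusted p = 0.189).

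Atp6v1a and Atp6v1b2, the catalytic head, gave values on the same side but did not pass. Atp6v1a had 6.47, 7.67 and 9.02 in G93A-SOD1 muscle at 100 days, against 6.02, 6.77 and 7.81 in wild type, and the difference was 0.74 (SE 0.31, limma, adjusted p = 0.110). Its spread was the widest of the members, and its highest values fell on arrays with Atp6v1h signal. Those arrays had 8.67 and 9.02 in G93A-SOD1 against 7.22 and 7.81 in wild type, and the others 6.47 to 7.70 against 6.02 to 6.96. The difference was thus 1.33 within the first set and 0.51 within the second, and with the set as a block Atp6v1a passed the limma test (adjusted p = 0.0246). Atp6v1b2 had 10.36, 10.72 and 10.85 in G93A-SOD1 and 10.19, 10.33 and 10.66 in wild type, a difference of 0.25 (limma, adjusted p = 0.152). Its difference was 0.06 on the arrays with Atp6v1h signal and 0.33 on the others, and without the first set the limma adjusted p was 0.241.

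The remaining stalk subunits differed less. Atp6v1f, of the central stalk, had 11.35, 11.51 and 11.81 in G93A-SOD1 muscle at 100 days and 11.00, 11.31 and 11.57 in wild type, a difference of 0.22 (limma, adjusted p = 0.190). Atp6v1c1, whose protein leaves the pump when V1 and V0 come apart, had 8.22, 8.39 and 8.66 in G93A-SOD1 and 7.98, 8.39 and 8.45 in wild type, a difference of 0.12. In both genes the genotypes overlapped.

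Of the membrane domain, Atp6ap1 was the member whose genotypes separated without passing the test. It had 12.24, 12.31 and 12.38 in G93A-SOD1 muscle at 100 days and 11.91, 12.14 and 12.19 in wild type, so every G93A-SOD1 array lay above every wild type array. The genotypes did not overlap, in either direction, for 1 of 8 members and 2.54% of all genes. The difference was 0.21 (SE 0.11, limma, adjusted p = 0.201). Atp6v0d1 had 8.73, 9.10 and 9.37 in G93A-SOD1 against 8.74, 8.94 and 9.13 in wild type, a difference of 0.14. Atp6v0b, of the proton ring, ran the other way, with 8.88, 9.46 and 9.83 in G93A-SOD1 against 9.27, 9.55 and 9.95 in wild type and a difference of −0.16 (limma, adjusted p = 0.477). It was also the lowest at 70 days, with 9.10, 9.62 and 9.98 in G93A-SOD1 against 9.63, 9.71 and 10.12 in wild type, a difference of −0.21 (limma, adjusted p = 0.436).

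**Figure D3:**
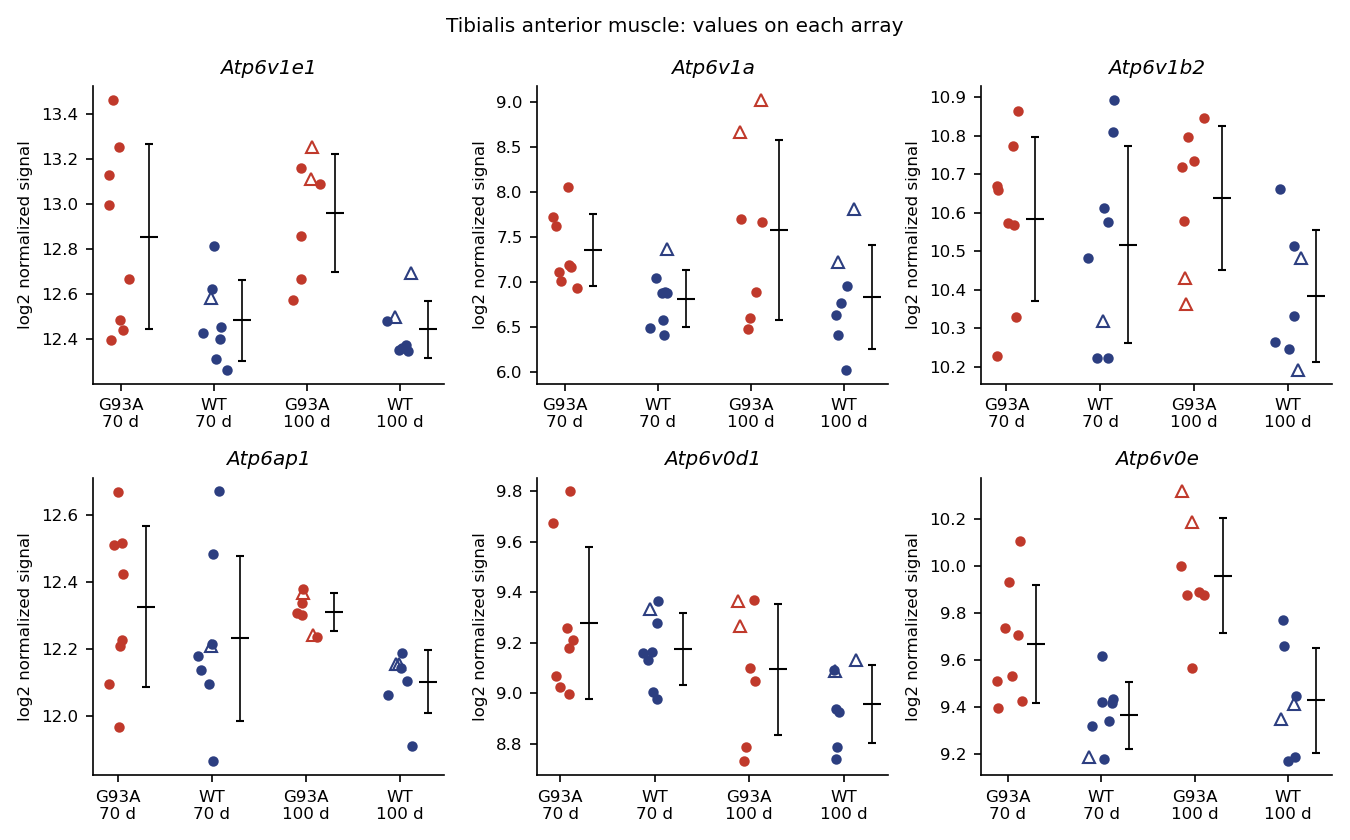
Normalized log2 signal of Atp6v1e1, Atp6v1a, Atp6v1b2, Atp6ap1, Atp6v0d1 and Atp6v0e on every muscle array by age and genotype (G93A-SOD1 red, wild type blue); lines are group means and triangles are arrays with Atp6v1h signal. At 100 days 5 of 7 G93A-SOD1 arrays lie above all wild type arrays for Atp6v1e1, and all 7 do for Atp6ap1.

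Set side by side, 7 of 8 members were above 0 in muscle at 100 days, with a median difference of 0.21, beside 48.5% of all genes and a median of −0.01. An unadjusted p under 0.05 was reached by 3 members and 28% of all genes. With the arrays centred on their medians instead of quantile normalized it was 8 of 8, with a median of 0.40 beside 0.18 over all genes. At 70 days 6 of 8 members were above 0, with a median of 0.09 beside −0.02 over all genes, 0 of 8 passed the test beside 0.011% of all genes in limma, and 1 had an unadjusted p under 0.05, beside 15.4%. Atp6v0d1 and Atp6v1c1 are each measured by several detected probes, and none of those probes passed in any genotype comparison in limma. The genotype difference did not change with age past the limma threshold for any member in any tissue, beside 0% of all genes; 0 members had an unadjusted p under 0.05 there, beside 4.04%, 2.53% and 1.44% of all genes in spinal cord, muscle and blood. Between 100 and 70 days in muscle, 0 members passed in either genotype beside 0% of all genes, and Atp6v1f, at −0.22 in wild type, was the 1 member with an unadjusted p under 0.05. Of all genes 7.38% had one in G93A-SOD1 and 11.8% in wild type. The same comparison of ages gave 0 members past the threshold and 0 with an unadjusted p under 0.05 in spinal cord and blood (limma), beside 7.07% of all genes in G93A-SOD1 and 2.68% in wild type spinal cord, and 5.89% and 9.71% in G93A-SOD1 and wild type blood.

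In G93A-SOD1 muscle at 100 days other genes moved that mark the state of the tissue. Of 11 genes induced by denervation, 7 were tested and all 7 passed higher in limma, among them Chrng, the fetal acetylcholine receptor subunit, at 5.08 log2 units (adjusted p = 0.00588) and Myog, a myogenic regulator, at 0.92 (adjusted p = 0.0406). Their summed signal was 2839 to 12332 in G93A-SOD1 and 991 to 1415 in wild type. Of 12 macrophage and microglia genes, 7 were tested and 2 passed higher in limma, Aif1 by 0.57 (adjusted p = 0.0187) and Cx3cr1 by 0.53 (adjusted p = 0.0277), and Itgam and P2ry12 were detected on no muscle array. Their summed signal was 374 to 632 in G93A-SOD1 and 257 to 410 in wild type. Of the other cell types listed, the slow fibre genes Tnni1 and Tnnt1 passed higher, of 5 tested. So did S100a8, the 1 neutrophil gene tested of 7 listed, and Csf3r, Cxcr2, Mmp8 and Ngp were detected on no muscle array. The fast fibre gene Myh4 passed lower, of 8 tested, and the oligodendrocyte and Schwann cell gene Mbp passed lower, of 3 tested. In bulk tissue a change in the number of cells of a type and a change in RNA per cell cannot be told apart, and the part of these markers in the value of Atp6v1e1 was not tested.

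The rest of the pump in muscle lay on both sides of 0. Of 17 further pump genes 15 had a probe and 9 were tested. Atp6v0e, a small membrane subunit, was higher in G93A-SOD1 muscle at 100 days, with 9.56, 9.89 and 10.32 against 9.17, 9.41 and 9.77 in wild type, a rise of 0.53 (SE 0.12, limma, adjusted p = 0.0110). It was 0.31 at 70 days (limma, adjusted p = 0.195), and its 100-day difference was 0.88 on the 2 and 2 arrays that carry Atp6v1h and 0.40 on the other 5 and 5. The call of Atp6v0e was lost without the first set (limma, adjusted p = 0.198) and with median centring (0.75, adjusted p = 0.179 in limma), and held in the other 9 of 11 settings. Atp6ap2, the accessory protein also called the prorenin receptor, had the largest difference of the 9 in size, with 5.76, 6.10 and 7.58 in G93A-SOD1 against 5.01, 5.73 and 6.24 in wild type, 0.67 apart, and did not pass (limma, adjusted p = 0.103). Without the arrays that carry Atp6v1h the Atp6ap2 difference was 0.34 (limma, adjusted p = 0.479). Another probe of Atp6ap2 gave 0.55 (limma, adjusted p = 0.141), and its dimmest probe was among the probes detected on all 5 of those muscle arrays and on no other. Atp6v1d was at −0.46 and Atp6v0a1, the neuronal a subunit, at −0.23, and neither passed (limma, adjusted p = 0.0732 and 0.251). The others, none of which passed, were Tcirg1 at 0.23, Atp6v0e2 at −0.09, Rnasek and Atp6v0a2 both at −0.11 and Atp6v1g2 at −0.31. The median of the 9 was −0.11. Atp6v1b1, Atp6v1c2, Atp6v1e2 and Atp6v1g3, forms known from kidney, testis and other epithelia, were detected on 0 of 92 arrays.

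Genes that assemble or regulate the pump were tested in the same muscle arrays at 100 days. Of 13 tested, 0 passed higher and 2 lower in limma, Rragd, a Rag GTPase that links the lysosome to mTORC1, at −0.54 (adjusted p = 0.0407) and Oxr1, whose protein can bind V1, at −0.39 (adjusted p = 0.0454). Of 13 lysosomal channels and membrane proteins 1 passed higher, the tetraspanin Cd63 at 0.44 (limma, adjusted p = 0.0218). Of 11 genes of the mitochondrial ATP synthase, the related rotary enzyme that makes ATP, 0 passed in limma, with a median of −0.13. Of 3 tested synaptic vesicle genes 1 passed lower, Syp, at −0.85 (limma, adjusted p = 0.0452). In spinal cord and blood 0 genes of these 4 lists passed at either age.

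Blood showed no change of the 8 subunits past the threshold. At 70 days 0 of 8 passed, beside 0.0714% of 8403 genes, and 1 had an unadjusted p under 0.05 in limma, beside 6.26%. At 100 days 0 of 8 passed, beside 0.0595%, and no member had an unadjusted p under 0.05, beside 2.32%. The member with that p was Atp6v0d1, subunit d, which had 10.21, 10.42 and 10.73 in G93A-SOD1 blood at 70 days and 9.33, 10.04 and 10.69 in wild type, a difference of 0.42 (limma, adjusted p = 0.734). The G93A-SOD1 range lay in the upper part of the wild type range. At 70 days 7 of 8 members were above 0, but so were 62.1% of all genes. At 100 days 2 of 8 were, and differences lay between −0.19 and 0.24. The 95% intervals of 7 members at 70 days and 6 at 100 days stayed within 0.5 log2 units of 0.

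Blood was also the tissue against which the muscle value of Atp6v1e1 could be tested. In G93A-SOD1 blood at 100 days it had 10.41, 10.48 and 10.65, against 10.17, 10.64 and 10.99 in wild type. The genotype difference in muscle exceeded that in blood by 0.60 log2 units (SE 0.16, limma over all 92 arrays, adjusted p = 0.0203, where 2.04% of 7024 genes passed). It exceeded that in spinal cord by 0.46, which did not pass (limma, adjusted p = 0.156, where 0.826% did). At 70 days neither difference passed, with 0.32 against blood and 0.28 against spinal cord (limma, adjusted p = 0.360 and 0.796, where 0.626% and 0.0285% of genes passed). No other member passed any of the 4 tests. These tests were chosen after seeing the data and were not repeated under the alternative settings. The labels do not say whether arrays of different tissues come from the same mouse, so every comparison of tissues here treated the arrays as unpaired.

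The tissues themselves differed far more than the genotypes. In wild type mice of both ages (15 arrays a tissue, all arrays normalized together), 8 of 9 members with a probe were lower in muscle than in spinal cord and 0 were higher in limma, where 73.8% of 12530 genes passed, 34.2% lower and 39.6% higher in muscle. The median over the members was −1.51 log2 units, against 0.09 over all genes. The head subunits differed most. Atp6v1b2 averaged 10.45 ± 0.20 in muscle and 13.50 ± 0.24 in spinal cord (SD, n = 15 each), a difference of −3.05 (limma, adjusted p = 1.73e-30). Atp6v1a averaged 7.12 ± 0.41 in muscle and 9.83 ± 0.57 in spinal cord, a difference of −2.71. Atp6v1c1, Atp6v0d1, Atp6v1e1 and Atp6ap1 had differences from −1.73 to −1.25, and Atp6v0b and Atp6v1f had −0.73 and −0.55.

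Blood divided the subunits. Against spinal cord 7 of 9 members were lower and 1 was higher in limma, where 82.6% of all genes passed, 41.3% lower and 41.4% higher. Atp6v1b2 averaged 10.04 ± 0.35 in blood against 13.50 ± 0.24 in spinal cord, a difference of −3.47, and Atp6v1e1 11.21 ± 0.18 against 13.91 ± 0.17, a difference of −2.70. Atp6v1f was the 1 that was higher in blood, by 0.49 (limma, adjusted p = 4.09e-08), although with arrays centred on their medians it was 0.24 higher and did not pass (adjusted p = 0.137 in limma), leaving 7 lower and 0 higher. Atp6v0d1 averaged 10.81 ± 0.37 in blood and 10.81 ± 0.20 in spinal cord, with a 95% interval of the difference from −0.20 to 0.20. With median centring it was lower in blood, at −0.91 (limma, adjusted p = 8.2e-05), so its order rests on the scaling. Atp6v1h counts among the 7 (limma, adjusted p = 0.0498), but it was above background on 0 of 31 blood arrays and on only 5 of 31 spinal cord arrays, so no level is given.

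Between blood and muscle the members went both ways, with 2 higher and 4 lower in blood of 9 in limma, where 72.8% of all genes passed, 36.3% higher and 36.6% lower. Atp6v0d1 was higher in blood by 1.61 (limma, adjusted p = 3.99e-20), with 10.81 ± 0.37 against 9.20 ± 0.16 in muscle, and Atp6v1f by 1.04. Atp6v1e1 was lower, at −1.20, with 11.21 ± 0.18 in blood against 12.41 ± 0.16 in muscle, and Atp6v1b2, Atp6ap1 and Atp6v1c1 were at −0.41, −0.39 and −0.21. Atp6v0b (−0.16, adjusted p = 0.0538) and Atp6v1a (−0.05, adjusted p = 0.827) did not pass in limma. The order of tissues was therefore spinal cord, muscle, blood for Atp6v1b2, Atp6v1c1, Atp6v1e1 and Atp6ap1. For Atp6v1a and Atp6v0b muscle and blood did not differ past the threshold, and for Atp6v0d1 spinal cord and blood did not. For Atp6v1f the order was blood, spinal cord, muscle. The place of blood against spinal cord for Atp6v0d1 and Atp6v1f did not hold with median centring, as given above.

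**Figure D4:**
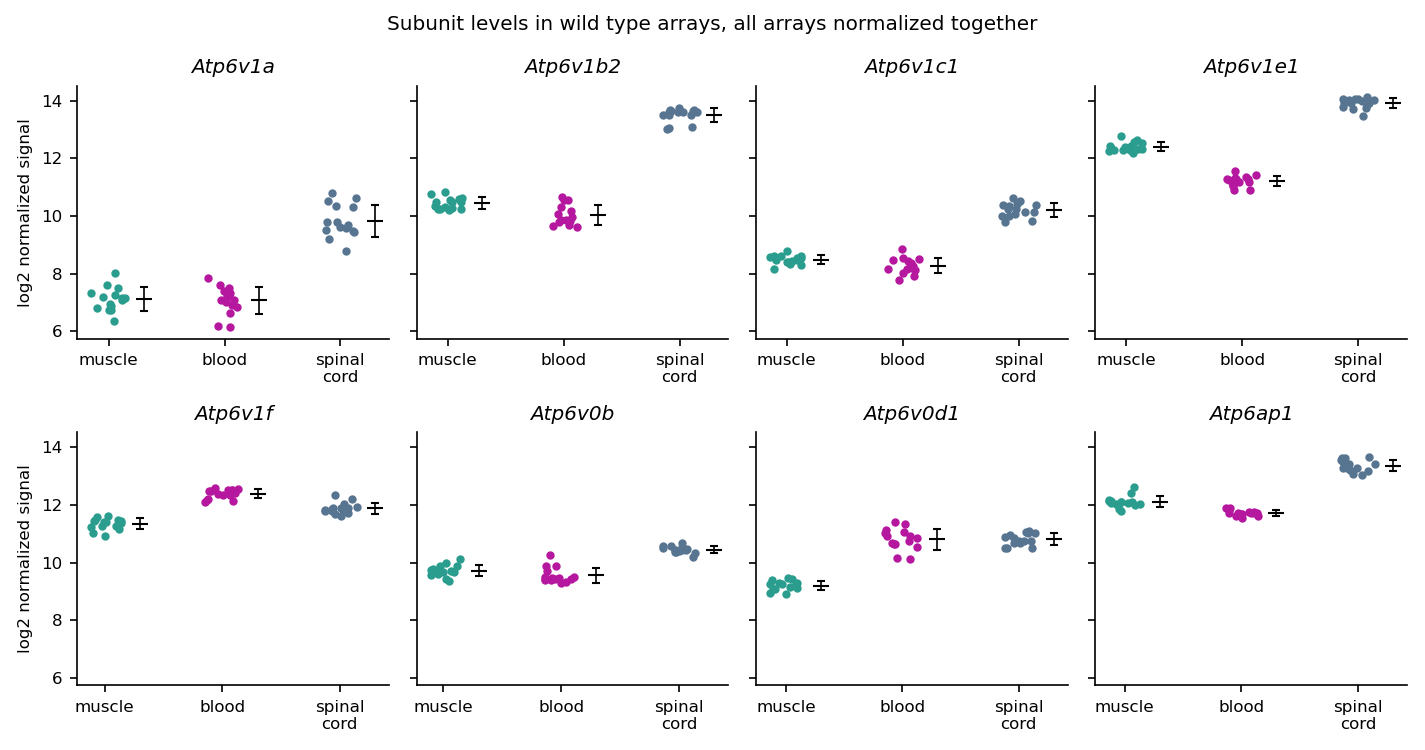
Normalized log2 signal of the 8 members in wild type muscle, blood and spinal cord (mean ± SD, n = 15 arrays each; levels are compared within a gene). Most subunits are highest in spinal cord, while with this normalization Atp6v1f and Atp6v0d1 in blood reach or pass the spinal cord level.

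Over the 12 groups the members' own profiles followed their mean to different degrees, which describes mostly these tissue differences. Pearson's r with the mean of the 8 members was 0.99 for Atp6v1b2, Atp6v1c1 and Atp6v1a, 0.97 for Atp6v0b and Atp6ap1, 0.87 for Atp6v1e1, 0.40 for Atp6v0d1 and −0.03 for Atp6v1f. Each member is a part of that mean. The genes whose profile was most like the mean were Prepl, Dclk1, Rab9b, Tcea2 and Hoxb9, each with r above 0.99 over the 12 groups. In muscle and blood all of these but Tcea2 averaged 4.61 to 5.15. That is near the floor, since Atp6v1h, detected on no blood array, averaged 4.66 in wild type blood. Their likeness thus rests on signal in spinal cord. Of 10565 genes 11.8% had r above 0.95.

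Whether the subunits varied together from array to array was tested on deviations from the group means, which leaves out genotype, age and tissue. Over the 28 pairs of members in each tissue the median r was 0.02 in spinal cord, 0.01 in muscle and −0.00 in blood, beside 0.03, 0.01 and 0.01 over all pairs of tested genes. The correlation was above 0 for 15, 14 and 14 of the 28 pairs, and for 53.1%, 51.0% and 51.0% of all gene pairs. Arrays share depth and scaling, which a correlation over arrays includes.

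Single pairs did correlate, in a permutation test with Benjamini-Hochberg adjustment over all 84 pairs for both Pearson's r and Spearman's rho. The deviations were permuted freely over the arrays of a tissue, which ignores the group means taken out. The permutation p-values are therefore somewhat too small, and calls close to the threshold are uncertain. In muscle 7 pairs passed, 5 positive and 2 negative. In spinal cord 4 passed, 2 of each sign, and in blood 1 negative pair passed. The permutation test was not run on pairs of other genes, so these counts have no share to be set against. Atp6v1e1 was in 3 of the muscle pairs. It correlated with Atp6ap1 (r = 0.72, rho = 0.78 over 30 arrays, adjusted permutation p = 0.00168 and 0.000840), with Atp6v0d1 (r = 0.70, rho = 0.59, adjusted permutation p = 0.00168 and 0.0116) and with Atp6v1a (r = 0.62, rho = 0.65, adjusted permutation p = 0.00812 and 0.00399). The rho with Atp6ap1 reached the smallest p that 100000 permutations can give. Without the 2 arrays farthest from the median of the first gene these r were 0.67, 0.56 and 0.58, and without the 5 arrays that carry Atp6v1h they were 0.75, 0.66 and 0.61. Atp6v1e1 and Atp6ap1 passed in spinal cord too (r = 0.50, rho = 0.54, adjusted permutation p = 0.0309 and 0.0216).

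Other pairs ran against each other. Atp6v1c1 and Atp6v1f, subunits of different stalks, were negative in muscle (r = −0.52, rho = −0.51, adjusted permutation p = 0.0257 and 0.0295) and in spinal cord (r = −0.55, rho = −0.67, adjusted permutation p = 0.0186 and 0.00280). Atp6v1c1 was negative with Atp6v0b in blood (r = −0.55, rho = −0.64, adjusted permutation p = 0.0178 and 0.00280). Atp6v1a and Atp6v1b2, partners in the catalytic head, had r = −0.54 in spinal cord (rho = −0.47, adjusted permutation p = 0.0186 and 0.0453), and r = −0.26 without the 5 arrays on which Atp6v1h was detected. The value of this pair thus rests in part on those arrays. The share of member pairs with r above 0.5 was 2, 5 and 0 of 28 in spinal cord, muscle and blood, beside 10.9%, 5.46% and 7.36% of all gene pairs. Below −0.5 there were 2, 1 and 1 of 28, beside 7.93%, 4.30% and 6.61% of all gene pairs, so strongly negative pairs were about as frequent as among all genes.

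**Figure D5:**
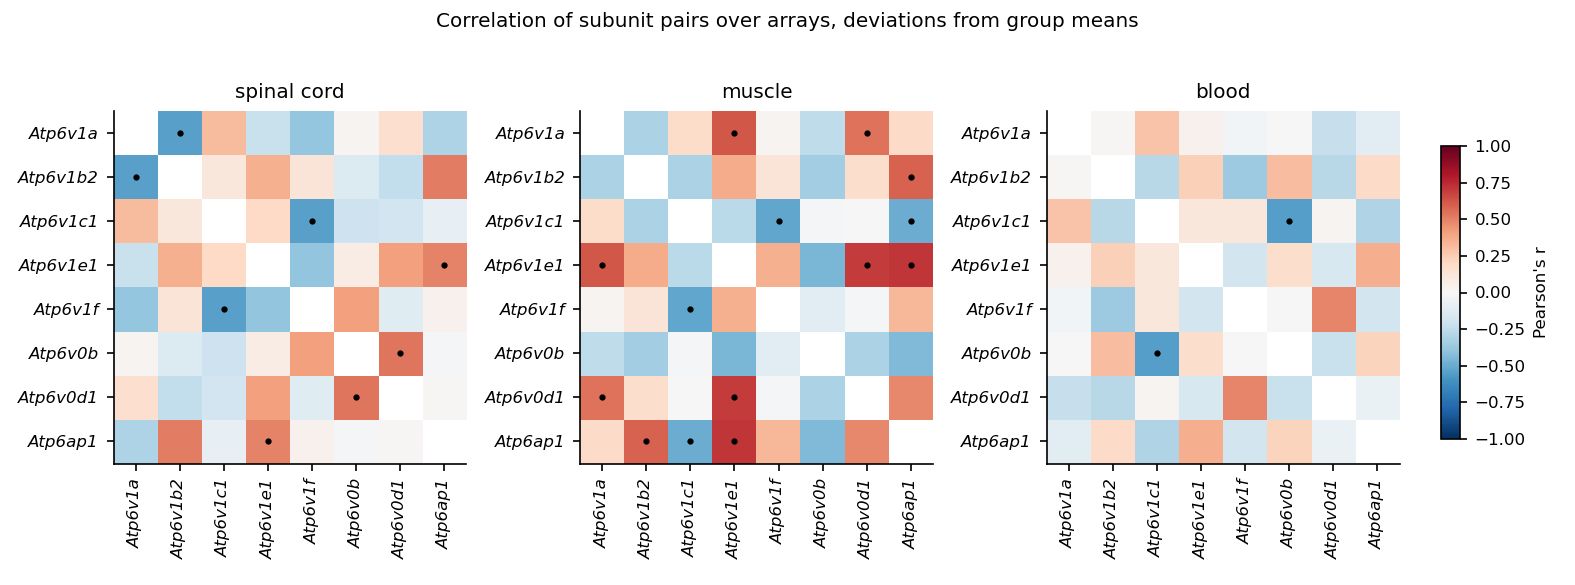
Pearson's r between members over arrays within spinal cord, muscle and blood, from deviations from group means; dots mark pairs that passed for both r and rho after adjustment over 84 pairs. Positive and negative pairs are about equally frequent in each tissue, and the strongest positive block in muscle joins Atp6v1e1 with Atp6ap1, Atp6v0d1 and Atp6v1a (r from 0.62 to 0.72).

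Muscle arrays carried their defining genes, with all 8 measured fast fibre genes on all 30 arrays. In spinal cord 5 of 8 neuron genes and 4 of 6 motor neuron genes passed the filter and Mnx1 was on no array, and in blood 3 of 6 red cell and 6 of 7 neutrophil genes passed. Probes detected numbered 5212 to 13428 in spinal cord, 8512 to 11577 in muscle and 6809 to 9691 in blood, of 24613. In spinal cord 2 arrays were dim (G93A-SOD1 replicate 1 at 70 days and wild type replicate 5 at 100 days) and 3 held muscle transcripts, and in blood 1 wild type array had a raised background. Without any of these the count of members past the threshold stayed 0 in their tissue. The probe for Sod1 read 0.65 log2 units higher in G93A-SOD1 blood at 70 days (limma, adjusted p = 0.0183) and 0.33 higher in muscle at 100 days (adjusted p = 0.0336), and did not pass in the other 4 comparisons. Whether this mouse probe reads the human transgene was not tested.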

How the data were processed

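The authors deposited, for each of 24613 probes on 92 arrays, an intensity that is non-normalized per the file headers, and its detection p-value. The scanner software, its processing and the genome build are not given in the sources used here. A matrix of log2 values was also deposited, which kept the order of the intensities but whose centring and normalization are unstated (median 7.42 on 90 arrays and 6.38 on 2 dim spinal cord arrays); it served as an alternative. The 7 lines with no probe name (0.00539% of the total intensity) were dropped. A single gene symbol was given for 20984 probes, several for 1 and none for 3628; 20968 were matched by Entrez identifier to RefSeq genes of GRCm38.p6 with 0 symbols changed.

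Each tissue was background-corrected and quantile normalized on its own by limma's neqc (offset 16). Probes with a detection p-value under 0.05 on at least 7 arrays of the tissue were kept, the brightest for each gene, which gave 10801, 9089 and 8403 genes in spinal cord, muscle and blood. All 4 groups of a tissue entered 1 limma fit, and p-values were adjusted by Benjamini-Hochberg over all genes at 0.05. All p-values of genes come from such limma fits. Tissues were compared in wild type arrays normalized together with age as a covariate. The test of genotype differences between tissues and the pair correlations (100000 permutations) were added after seeing the data. Among 308 pairs of arrays of 1 group 0 were identical (Spearman's rho from 0.58 to 0.963). The fit was tested on simulated data.

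The members, gene lists, markers and tests were chosen with earlier results of these data known. All members were described, with every other pump gene that passed the filter in muscle, and of other lists up to 3 genes in each direction past the threshold. Marker genes and Sod1 beyond that were named after their values were seen. Alternatives were no background correction, joint normalization, median centring, every probe on its own, array weights, a fit without the detection filter, a fit of only the 2 groups compared, the deposited matrix, and a block for the replicate number. Fits without doubtful arrays, with or without the arrays that carry Atp6v1h, and without each array in turn were added after seeing the data. Software was R 4.3.3, limma 3.58.1, version 1.17.8 of the data.table package, Python 3.11.15, pandas 2.3.3, numpy 2.4.6 and matplotlib 3.10.9.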

Additional observations from a re-analysis of the deposited data

Results flagged for a closer look

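Of 96 sets of a member's values within 1 tissue, genotype and age, 5 (5.21%) had a highest or lowest array that stood apart from the others by Dixon's criterion, and chance gives about 1 in 20. Atp6ap1 was lowest in G93A-SOD1 spinal cord at 70 days on replicate 2, at 13.08, where the next array was at 13.32. Atp6v1b2 was lowest in wild type spinal cord at 100 days on replicate 1, at 13.07, where the next was at 13.38. Both are arrays on which Atp6v1h was detected. Atp6v0b was highest in wild type muscle at 70 days on replicate 6, at 10.12 (next 9.85), and in wild type blood at 100 days on replicate 5, at 9.47 (next 8.68). Atp6v1c1 was highest in wild type muscle at 70 days on replicate 8, at 8.63 (next 8.36).

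The genotype difference of Atp6v1e1 at 100 days was larger in muscle than in blood by 0.60 log2 units (SE 0.16, limma, adjusted p = 0.0203 over 7024 genes), a test of the difference itself that was chosen after seeing the data. It was not repeated under the alternative settings or without the arrays that carry Atp6v1h.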

How the results depend on the processing

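Over the 15 comparisons of genotype, age and their interaction, the counts of members past the threshold moved in 1. Counts between tissues are not among these. In muscle at 100 days the count was 1. It was 0 with median centring (Atp6v1e1 at 0.65, limma, adjusted p = 0.249, with 43 genes called in place of 982, 2 members at an unadjusted p under 0.05 and the median of all genes at 0.18). It was 0 without the arrays that carry Atp6v1h (4 of the 14 arrays of these 2 groups) and 2 with those arrays as a block, where Atp6v1a joined Atp6v1e1. Leaving out 1 array at a time gave counts from 0 to 2 and 317 to 1461 genes, with Atp6v1a past the threshold without G93A-SOD1 replicate 4 or 5 (limma, adjusted p = 0.0441 and 0.0458). In the other 14 comparisons of genotype, age and their interaction all 164 alternative counts were 0, and leaving out 1 array gave 0 to 0 in the other 5 genotype comparisons. The reversal was Atp6v0d1 in blood against spinal cord, at −0.91 with median centring. Of 2069 alternative values of single pump genes 2045 kept their side of the threshold, 13 lost it, 10 gained it and 1 reversed. Values that changed sign without passing in either fit count among the 2045. An example is Atp6v1a in spinal cord at 70 days, from −0.35 to 0.36 over the settings.

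The labels do not say whether the replicate numbers pair the arrays, and the main fit did not use them. Same-numbered arrays of both genotypes correlated from −0.31 to 0.52. They passed 0.1 in 4 of 8, 3 of 7, 4 of 8, 4 of 7, 7 of 8 and 6 of 7 pairs (spinal cord, muscle and blood, each at 70 and 100 days). The same-numbered array was the best match in 4, 0, 1, 4, 1 and 3 of these pairs. These values do not settle whether a number marks a pair or a shared batch. With the replicate number as a block the count in muscle at 100 days was 1, with 1322 genes called, and 0 in the other 5 genotype comparisons. Low signal limits Atp6v1a in muscle and blood and Atp6v1h everywhere.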

Other observations

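Pump genes other than the 10 also differed between tissues, as most genes did. In wild type mice 6 of 9 tested were lower in muscle than in spinal cord and 0 were higher in limma, with a median of −0.94. Of all genes 73.8% passed there, 34.2% lower and 39.6% higher, with a median of 0.09. In blood 5 were lower and 3 higher than in spinal cord, with a median of −0.96. Of all genes 82.6% passed there, 41.3% lower and 41.4% higher, with a median of −0.01. Atp6v1g2, the neuronal G subunit, was at −6.06 log2 units in muscle against spinal cord (limma, adjusted p = 5.96e-32), and it was detected on only 4 of 15 wild type blood arrays, so no blood value is given. Atp6v0a1, the a subunit of synaptic vesicles, was at −1.72 in muscle and −3.16 in blood. Tcirg1, the a3 subunit of osteoclasts and immune cells, was 2.09 log2 units higher in blood than in spinal cord, and Atp6v0e was 2.01 higher (limma, adjusted p = 1.74e-18 and 5.71e-28). Atp6v0e2, the other e subunit, was detected on 0 of 31 blood arrays and on all 31 spinal cord arrays. Atp6v0a2, Rnasek and Atp6v0e did not pass in muscle against spinal cord, at 0.21, −0.22 and −0.12. The mitochondrial ATP synthase ran the other way in muscle, with 9 of 11 tested genes higher than in spinal cord, beside 39.6% of all genes, and a median of 1.24. For Atp6v0d1, 2 further probes were measured and for Atp6v1c1 1 further probe, and levels of different probes were not compared.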
